A study of Mus musculus with 4 samples.

Results

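Cytosolic heat shock proteins were followed in 4T1, a metastatic mouse mammary carcinoma line used to model breast tumours that lack hormone receptors and HER2. The set held 10 genes, taken by symbol, and a gene was measured by the brightest row of the array that carried its symbol and no other. By this rule 7 of the 10 had a row, among 30142 genes with such a row on the array. They were Hspa1a, Hspa8, Hsph1, Hsp90aa1, Dnajb1, Hspb1 and Hspb8. Hspa1b was carried only by a row it shared with Hspa1a, and Hsp90ab1 and Hsf1 were on no row that the probe table names, so no level is given for these 3.

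Total RNA of 4 samples was hybridised to whole-transcript arrays, 2 from cells with a scramble control (NC) and 2 from 4T1 clones with a short hairpin against MCT-1 (shMCT-1) that had been selected in puromycin. The labels do not say whether the NC cells were also kept in puromycin, or whether the arrays labelled shMCT-1 came from 1 clone or several. The replicates of each group, numbered 1 and 2, are labelled biological, and what samples of the same number share is not stated. The comparison of shMCT-1 with NC asks how silencing MCT-1 alters expression, and that of replicate 2 with replicate 1 shows how far the samples differ apart from it.

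Heat shock proteins are molecular chaperones that keep other proteins folded, refold damaged ones and pass those that cannot be saved to degradation. HSP70 proteins bind exposed stretches of a client in a cycle driven by ATP, J-domain proteins such as Dnajb1 hand clients to them, and HSP110 proteins such as Hsph1 help them release the nucleotide. HSP90 completes the folding of kinases and hormone receptors, small heat shock proteins hold unfolded clients in solution, and the transcription factor HSF1 switches on the inducible members under heat and other protein stress. Tumour cells are known to depend on these chaperones to carry mutated and overproduced proteins.

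Upstream sequence bears on the inducible members, since HSF1 binds inverted repeats of the unit GAA. RefSeq (GRCm38.p6) gave the start region of 6 of the 10 genes. The 250 bases before each start were searched for GAANNTTC and TTCNNGAA, which each read the same on both strands and can overlap in a longer run of repeats. Of 32851 start regions of that length 12.8% held at least 1 of the words. The 6 genes had 8 such regions, and 4 of the 6 genes held a match, namely Hspa1a, Hspa1b, Hsph1 and Hspb1. The share is per region and the count per gene, and the regions of Hspa1a and Hspa1b are near-identical, so no excess is read from these values. These words were not in the windows of Dnajb1 and Hspb8. Both regions of Hsph1 held the same match, 33 and 54 bases before their starts. Neither start is the first base of the gene in RefSeq, so these bases may be transcribed, and a shorter stretch is shown. The stretches with a match are shown 5′ to 3′ on the strand of the gene, with the matches in capitals.
Hspa1a, chr17:34972217-34972296, minus strand: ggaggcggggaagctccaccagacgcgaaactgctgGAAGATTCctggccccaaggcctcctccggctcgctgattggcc
Hspa1b, chr17:34959299-34959378, minus strand: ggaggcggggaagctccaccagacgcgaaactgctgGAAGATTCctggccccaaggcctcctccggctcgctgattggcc
Hspb1, chr5:135887786-135887865, plus strand: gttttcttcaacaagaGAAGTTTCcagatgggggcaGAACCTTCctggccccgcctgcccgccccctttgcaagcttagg
Hsph1, chr5:149636351-149636380, minus strand: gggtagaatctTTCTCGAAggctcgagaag

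The Hspa1a and Hspa1b stretches were the same at every printed base, with the match 104 bases before the start, and over all 250 bases before the start the 2 genes differed at 3. A match is a run of letters, and binding of HSF1 was not measured.

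Array medians lay between 3.68 and 3.73 on the log2 scale, and the number of arrays limits the precision. NC replicate 1 stood apart, with 829 rows over 1 log2 unit from the mean of the other 3 arrays, against 483 for shMCT-1 replicate 2, 124 for NC replicate 2 and 121 for shMCT-1 replicate 1. On that array 9 measured interferon-stimulated genes lay a median of 3.51 above the others, and 9 integrated stress response genes 0.94. Of the former, Usp18 and Rsad2 had log2 differences of -3.08 and -2.25 between the groups, or -0.39 and -0.042 without NC replicate 1, and of -3.50 and -2.89 between the replicate numbers. Mcts1, the gene for MCT-1, was at 7.86 and 8.05 in NC and at 7.81 and 7.89 in shMCT-1, a log2 difference of -0.10 (adjusted p = 0.945, limma), so a lower level was not detected and the second group is called the arrays labelled shMCT-1. The epithelial markers of the labelled cell type were all bright, each above 95.3% or more of rows by mean signal. They were not level between the groups, however, and 5 of the 6 were lower in the arrays labelled shMCT-1. Of these 5, Krt8 and Krt18 were at only -0.028 and -0.022 with groups that overlapped, and Cdh1 was at -0.30 with groups apart. Krt14 was at 12.92 and 12.76 in NC and at 11.12 and 11.20 in the other group, and Krt19 at 15.23 and 14.95 and at 14.14 and 13.76. These keratins had arrays fully apart and log2 differences of -1.68 and -1.14 (adjusted p = 0.669 and 0.882, limma), larger than that of any heat shock protein measured, and their part in the results below was not tested. Of 6 macrophage markers Ptprc, Adgre1, Lyz2 and Itgam were between 2.91 and 3.49 on every array, below every array's median, while Cd68 and Csf1r were highest on NC replicate 1. The summed log2 signal of the 6 was 29.2 and 25.7 in NC and 26.9 and 26.3 in the arrays labelled shMCT-1. The summed signal of 4 lymphocyte markers ran from 12.9 to 13.6, of 5 fibroblast markers from 16.8 to 17.2 and of 4 endothelial markers from 13.6 to 14.3, and the part of other cells in the results was not tested. In a bulk sample, fewer cells of a type and less RNA per cell cannot be told apart.

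Between the groups, the heat shock proteins went both ways by small amounts. Hsph1 was 1.27-fold higher and Hspb8 1.29-fold lower in the arrays labelled shMCT-1, Hspb1 was 1.15-fold higher, and Hspa8, Hsp90aa1, Hspa1a and Dnajb1 differed by less than 1.1-fold. No gene passed after adjustment, 0 of the 7 and 0% of all 30142 genes (limma, adjusted p under 0.05). At an unadjusted p under 0.05 Hsph1 and Hspb8 passed, 2 of 7, against 5.59% of all genes. Hsph1 lost this with a variance trend, without moderation and after quantile normalisation, where Hspb8 kept it, and with any 1 array left out neither gene passed even unadjusted. The median log2 difference over the 7 was 0.022, against 0.014 over all genes, and the median size without sign was 0.100 against 0.101.

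**Figure D1:**
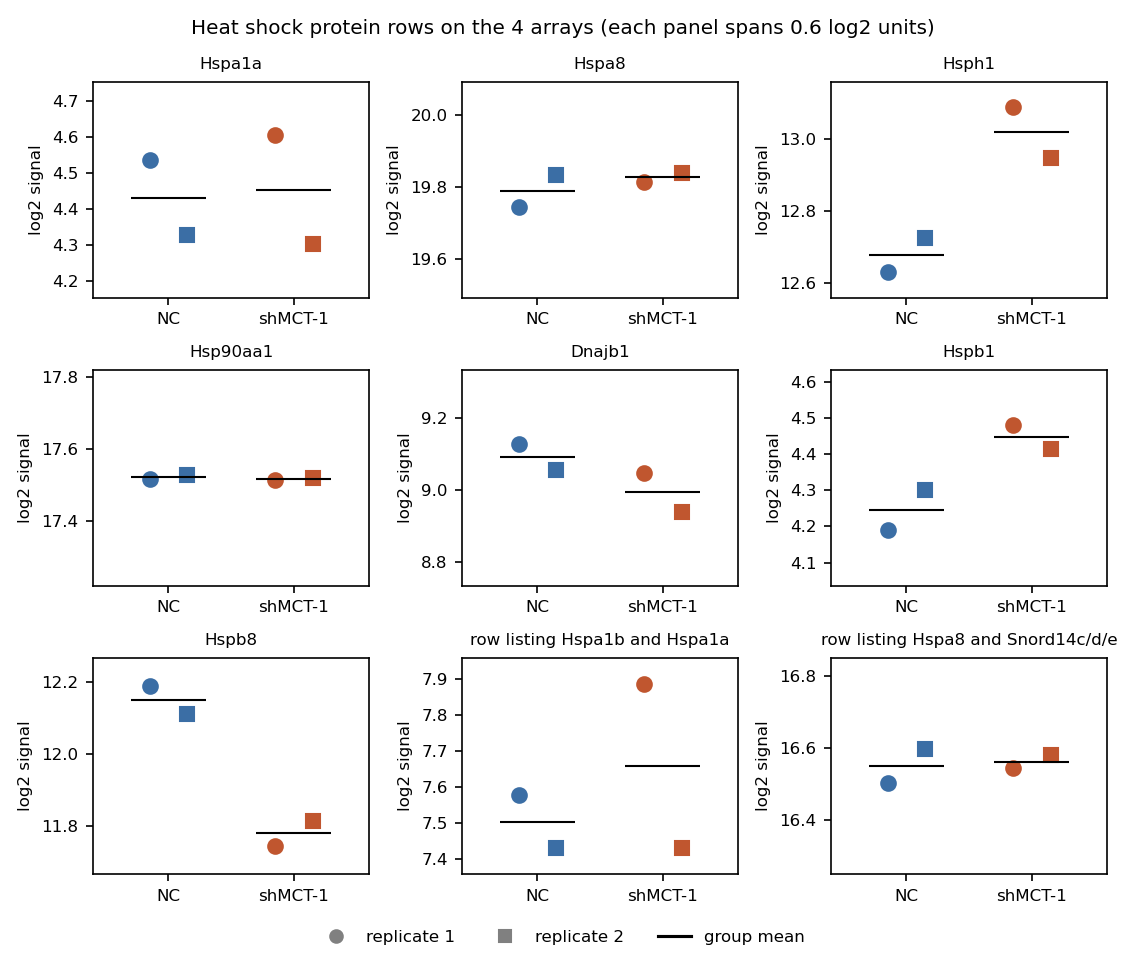
Log2 signal (vertical axis, a span of 0.6 log2 units in each panel) of the 7 measured heat shock proteins and of 2 rows with several symbols on each array, NC in blue and shMCT-1 in orange, circles for replicate 1, squares for replicate 2 and bars for group means. Hsph1, Hspb1, Hspb8 and Dnajb1 have groups that do not overlap, while in Hspa1a both circles lie above both squares.

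Hsph1, the HSP110 exchange factor for HSP70, was at 12.63 and 12.72 in NC replicates 1 and 2 and at 13.09 and 12.95 in shMCT-1 replicates 1 and 2. Both arrays labelled shMCT-1 were higher than both NC arrays, and the groups did not overlap. The group values were 12.68 ± 0.066 and 13.02 ± 0.099 (SD, n = 2 each), and the log2 difference was 0.34 (SE 0.115, 95% interval 0.039 to 0.64, adjusted p = 0.882, limma). NC replicate 1 was the lowest array, and without it the difference was 0.29. With each array left out in turn it ran from 0.27 to 0.41.

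Hspb8, a small heat shock protein that works with the co-chaperone Bag3 in selective autophagy of misfolded proteins, was at 12.19 and 12.11 in NC and at 11.75 and 11.81 in the arrays labelled shMCT-1. Here both NC arrays were higher, and the groups again did not overlap. The group values were 12.15 ± 0.055 and 11.78 ± 0.049 (SD, n = 2 each), and the log2 difference was -0.37 (SE 0.107, 95% interval -0.65 to -0.090, adjusted p = 0.882, limma). It was -0.33 without NC replicate 1 and ran from -0.41 to -0.33 with 1 array left out. Bag3 itself was at 10.14 and 10.11 in NC and at 9.93 and 10.00 in the arrays labelled shMCT-1, a log2 difference of -0.16 that did not pass.

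Hspb1, the mouse form of HSP27, which holds unfolded clients and stabilises actin filaments, was dim, at 4.19 and 4.30 in NC and at 4.48 and 4.41 in the arrays labelled shMCT-1. The groups did not overlap, with the arrays labelled shMCT-1 higher. The log2 difference was 0.20 (SE 0.110, 95% interval -0.086 to 0.49, adjusted p = 0.897, limma), so the interval held 0. Its mean signal lay above 64.7% of rows and that of Hspa1a above 66.0%, and signals of dim rows can be compressed.

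Dnajb1, the main J-domain partner of inducible HSP70, was at 9.13 and 9.06 in NC and at 9.05 and 8.94 in the arrays labelled shMCT-1. The groups did not overlap, but the gap between NC replicate 2 and shMCT-1 replicate 1 was smaller than the gap between the replicates of either group. The log2 difference was -0.10 (SE 0.110, 95% interval -0.39 to 0.19, adjusted p = 0.940, limma). It ran from -0.15 without shMCT-1 replicate 1 to -0.046 without shMCT-1 replicate 2, with -0.064 without NC replicate 1.

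Counted by overlap alone, 2 of the 7 genes were fully higher in the arrays labelled shMCT-1, Hsph1 and Hspb1, against 19.0% of all genes, and 2 were fully lower, Dnajb1 and Hspb8, against 16.0%. With so few members these counts were not read as a departure from the background. An exact two-sided permutation of 2 arrays against 2 cannot give a p below 0.333.

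**Figure D2:**
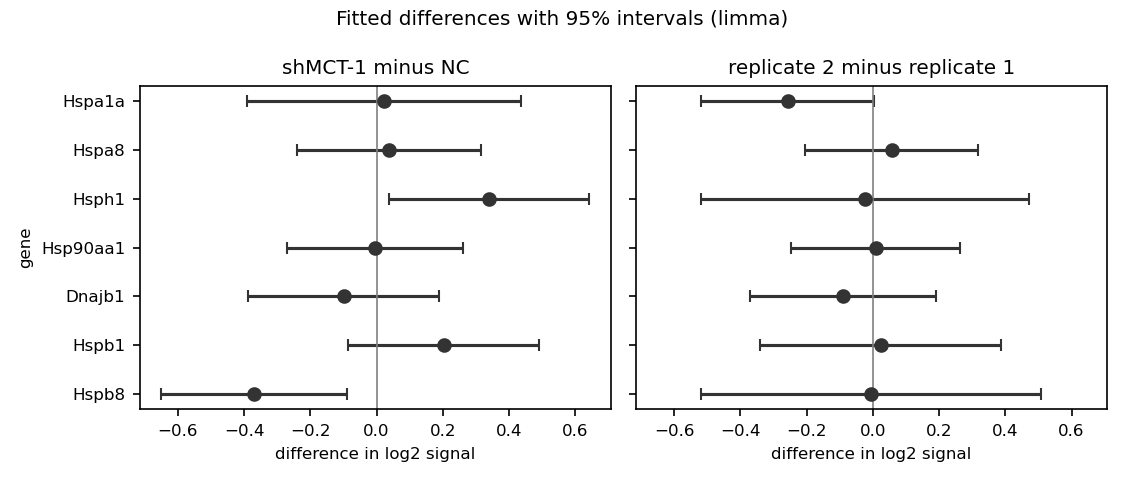
Differences in log2 signal (horizontal axis) with 95% intervals from limma for the 7 measured genes, for shMCT-1 minus NC on the left and replicate 2 minus replicate 1 on the right. The intervals of Hsph1 (0.039 to 0.64) and Hspb8 (-0.65 to -0.090) leave out 0 on the left, before adjustment over all rows, and on the right every interval holds 0.

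Hsp90aa1, the HSP90 alpha form, was at 17.52 and 17.53 in NC and at 17.51 and 17.52 in the arrays labelled shMCT-1. The 4 arrays lay within 0.014 log2 units, and the groups overlapped. The log2 difference was -0.0056 (95% interval -0.27 to 0.26, adjusted p = 0.998, limma), so a difference of up to that interval was not detectable here.

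Hspa8, the constitutive HSC70 of the cytosol, was at 19.75 and 19.83 in NC and at 19.82 and 19.84 in the arrays labelled shMCT-1. These groups overlapped as well, with NC replicate 1 lowest. The log2 difference was 0.038 (95% interval -0.24 to 0.31, adjusted p = 0.986, limma), and it was -0.0062 without NC replicate 1. By mean signal this row lay above 99.997% of rows, near the highest value of any array, 19.9, and differences of such bright rows can be compressed.

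The row that stands for Hspa8 was not placed at the gene by its identifier. Row identifiers carry a chromosome code that was that of the RefSeq gene in 99% of 30294 rows, but the 4 rows with Hspa8 as their single symbol carried codes of chromosomes 1, 6 and 14, whereas the gene is on chromosome 9. Mouse Hspa8 is known to have processed copies in the genome, and whether the probes of these rows read them was not tested. A row with the code of chromosome 9 listed Hspa8 and the small nucleolar RNA genes Snord14c, Snord14d and Snord14e that lie in its introns, and was at 16.50 and 16.60 in NC and at 16.54 and 16.58 in the arrays labelled shMCT-1. Its log2 difference was 0.012 (95% interval -0.27 to 0.29, adjusted p = 0.996, limma), so no difference was detected on either row.

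Hspa1a, the heat-inducible HSP70, was dim on the row with its symbol alone, at 4.54 and 4.33 in NC and at 4.61 and 4.30 in the arrays labelled shMCT-1. The groups overlapped and the log2 difference was 0.022 (SE 0.158, 95% interval -0.39 to 0.43, adjusted p = 0.995, limma). Its sign turned when an array was left out, from -0.13 without shMCT-1 replicate 1 to 0.17 without shMCT-1 replicate 2, and it was -0.083 without NC replicate 2 and 0.13 without NC replicate 1.

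The row that listed both Hspa1b and Hspa1a was at 7.58 and 7.43 in NC and at 7.89 and 7.43 in the arrays labelled shMCT-1, with both replicate 1 arrays above both replicate 2 arrays. Its log2 difference between the groups was 0.15 (SE 0.187, adjusted p = 0.948, limma), and shMCT-1 replicate 1 was the array that stood highest. The 2 genes are near-identical copies, so neither can be given a level from this row.

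**Figure D3:**
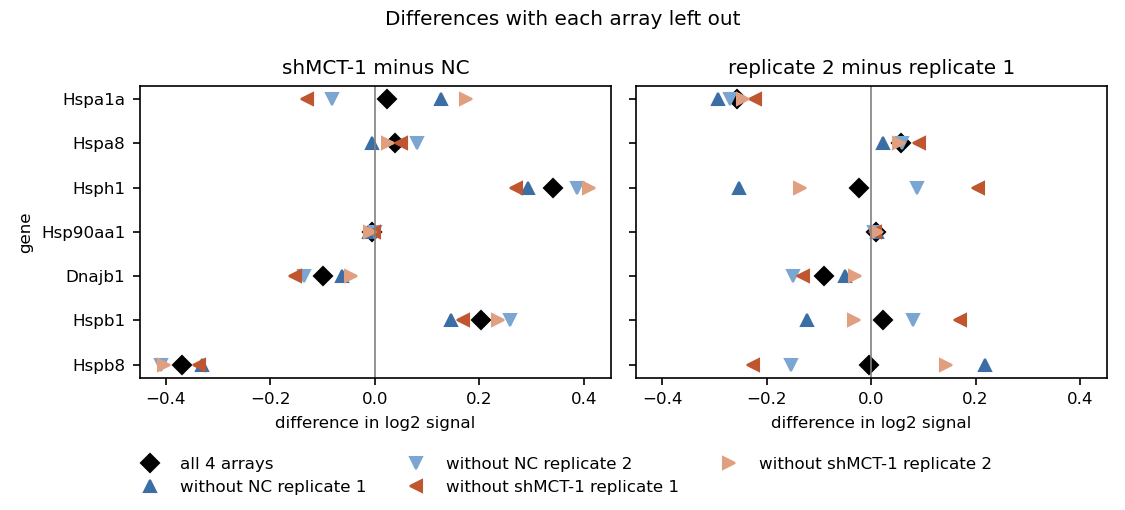
Differences in log2 signal (horizontal axis) of the 7 measured genes with all 4 arrays (black) and with each array left out, for shMCT-1 minus NC on the left and replicate 2 minus replicate 1 on the right. On the left Hsph1 stays between 0.27 and 0.41 and Hspb8 between -0.41 and -0.33, while Hspa1a lies on both sides of 0, and on the right Hsph1, Hspb1 and Hspb8 lie on both sides of 0.

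Between the replicate numbers, inducible HSP70 was the member with the largest difference. Hspa1a was 4.57 ± 0.049 on the replicate 1 arrays and 4.31 ± 0.018 on the replicate 2 arrays (SD, n = 2 each), and the numbers did not overlap. The log2 difference, replicate 2 minus replicate 1, was -0.26 (SE 0.101, 95% interval -0.52 to 0.0041, adjusted p = 0.545, limma), or 1.20-fold lower, and it was -0.21 within NC and -0.30 within the arrays labelled shMCT-1. It ran from -0.29 to -0.22 with 1 array left out. On the row with both HSP70 symbols the difference was -0.30 (adjusted p = 0.583, limma), with -0.15 within NC and -0.46 within the other group.

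In the other 6 genes the replicate numbers differed by less than 0.1 log2 units. Dnajb1 was at -0.090, Hsph1 at -0.024, Hspb8 at -0.0044, Hsp90aa1 at 0.0086, Hspb1 at 0.023 and Hspa8 at 0.057. In this comparison 0 of the 7 passed, as did 0% of all genes (limma, adjusted p under 0.05), and 0 of the 7 had an unadjusted p under 0.05, against 9.10% of all genes. Hspa8 and Hsp90aa1, 2 of 7, were fully higher on the replicate 2 arrays, against 19.8% of all genes, and Hspa1a, 1 of 7, was fully lower, against 22.0%. The median log2 difference was -0.0044 over the 7 and -0.012 over all genes, and the median size without sign was 0.024 against 0.109. The 2 comparisons use the same 4 arrays and are not independent.

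Around these members, 65 other genes of chaperone lists were measured, with the endoplasmic reticulum list left out and given below. They were further HSP70 and small heat shock genes, co-chaperones, the TRiC chaperonin, mitochondrial chaperones, heat shock factors and other HSF1 targets. Between the groups 0 of the 65 passed after adjustment over all rows, and 0 had an unadjusted p under 0.05 (limma), against 5.59% of all genes. Between the replicate numbers 0 passed after adjustment, and 8, or 12.3%, had an unadjusted p under 0.05, 6 of them higher and 2 lower on the replicate 2 arrays, against 9.10% of all genes in both directions. Of 10 genes in the list left out, 1 had an unadjusted p under 0.05 between the groups, Dnajc3, and 1 between the numbers, Dnajb11.

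Among the other HSP70 and HSP110 genes, Hspa4l, an HSP110 family member, was at 9.99 and 8.49 in NC replicates 1 and 2 and at 9.85 and 8.46 in shMCT-1 replicates 1 and 2. Both replicate 1 arrays were thus higher by more than 1 log2 unit, and the groups overlapped. The difference was -1.44 between the replicate numbers (SE 0.109, 95% interval -1.73 to -1.16, adjusted p = 0.523, limma), or 2.72-fold lower on the replicate 2 arrays. Between the groups it was -0.083, with -0.15 within replicate 1 and -0.022 within replicate 2. Without NC replicate 1 it was 0.67, but leaving out 1 array unbalances the replicate numbers. Part of the difference between the numbers then enters the group difference, here and wherever a value without NC replicate 1 is given. Of the 65 genes Hspa4l had the largest difference between the numbers. Hspa14, a ribosome-associated HSP70, had differences of 0.33 between the groups and 0.36 between the numbers, and Hspa2 was at -0.21 between the groups. Without NC replicate 1 the group differences of these 2 were 0.13 and -0.11. Within replicates 1 and 2 they were 0.38 and 0.29 for Hspa14, and -0.18 and -0.24 for Hspa2. The median of the 7 genes was 0.044 between the groups, or 0.016 without that array, and -0.084 between the numbers.

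HSP90 co-chaperones had a median of 0.092 between the groups, with 8 of 13 higher, and this was 0.0023 without NC replicate 1. Between the replicate numbers 11 of 13 were higher on the replicate 2 arrays, 6 of them with arrays fully apart, against 19.8% of all genes fully higher, and the median was 0.13. Ppid, a cyclophilin of HSP90 complexes, was at 12.33 and 13.28 in NC and at 12.85 and 13.60 in the arrays labelled shMCT-1, a difference of 0.85 between the numbers (adjusted p = 0.523, limma). Between the groups it was at 0.43, with 0.53 within replicate 1 and 0.33 within replicate 2, and at -0.049 without NC replicate 1. Chordc1, an HSP90 partner that HSF1 induces, was at 0.45 between the numbers and at 0.31 between the groups, or 0.031 without NC replicate 1. Its group difference was 0.42 within replicate 1 and 0.20 within replicate 2.

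All 7 measured subunits of TRiC, the ring that folds actin and tubulin, were higher on the replicate 2 arrays, 5 with arrays fully apart, against the same 19.8%, and the median was 0.19, with 0 at an unadjusted p under 0.05. Cct8 had a difference of 0.28 and Tcp1 of 0.24. Between the groups the TRiC median was 0.11, and 0.024 without NC replicate 1, with Tcp1 at 0.23 and Cct3 at 0.15, or 0.097 and 0.033 without it. Tcp1 was at 0.26 within replicate 1 and 0.21 within replicate 2, and Cct3 at 0.20 and 0.11. NC replicate 1 lay 0.25 below the other arrays in the TRiC median and 0.12 below in that of the HSP90 co-chaperones, and the part of that array in these values was not tested further. Signal was also spread more widely on the replicate 2 arrays, with quartiles of 3.15 and 5.50 in NC and 3.14 and 5.55 in shMCT-1. Those of replicate 1 were 3.17 and 5.42 in NC and 3.18 and 5.50 in shMCT-1. TRiC rows lay above 92.7% or more of rows by mean signal, and the shares of all genes were not matched for signal. The part of signal level in these directions, and in those of the small heat shock genes below, was not tested.

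The other small heat shock genes leaned the other way between the numbers, with 6 of 7 lower on the replicate 2 arrays and a median of -0.20. In 5 of them the arrays were fully apart, against 22.0% of all genes, but Hspb3, Hspb7 and Hspb9 were dim, between 2.68 and 3.47 and so below every array's median. Cryab, the alpha-B crystallin, was at -0.47 and its neighbour Hspb2 at -0.37, and both were at -0.26 between the groups. Without NC replicate 1 these were -0.014 and 0.030. Cryab was at -0.28 within replicate 1 and -0.24 within replicate 2, and Hspb2 at -0.46 and -0.057. The median of the 7 between the groups was -0.080, which turned to 0.0065 without that array.

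Partners of HSP70 showed small differences between the groups. For 8 J-domain co-chaperones the median was 0.016, with Dnajc5, the cysteine string protein, at 0.18 and Dnaja4 at -0.17. Without NC replicate 1 these were 0.0051, 0.039 and -0.098. Between the numbers Dnajc7 was at 0.39 and Dnaja2 at 0.24. For 8 nucleotide exchange factors and other partners the group median was -0.012, or -0.087 without NC replicate 1. Hspbp1 was at 0.30, with 0.40 within replicate 1 and 0.21 within replicate 2, and at -0.025 without that array. St13, the HIP protein that stabilises ADP-bound HSP70, was at 0.28, or 0.37 without it. Between the numbers Hspbp1 was at 0.56 and Bag4 at 0.32.

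**Figure D4:**
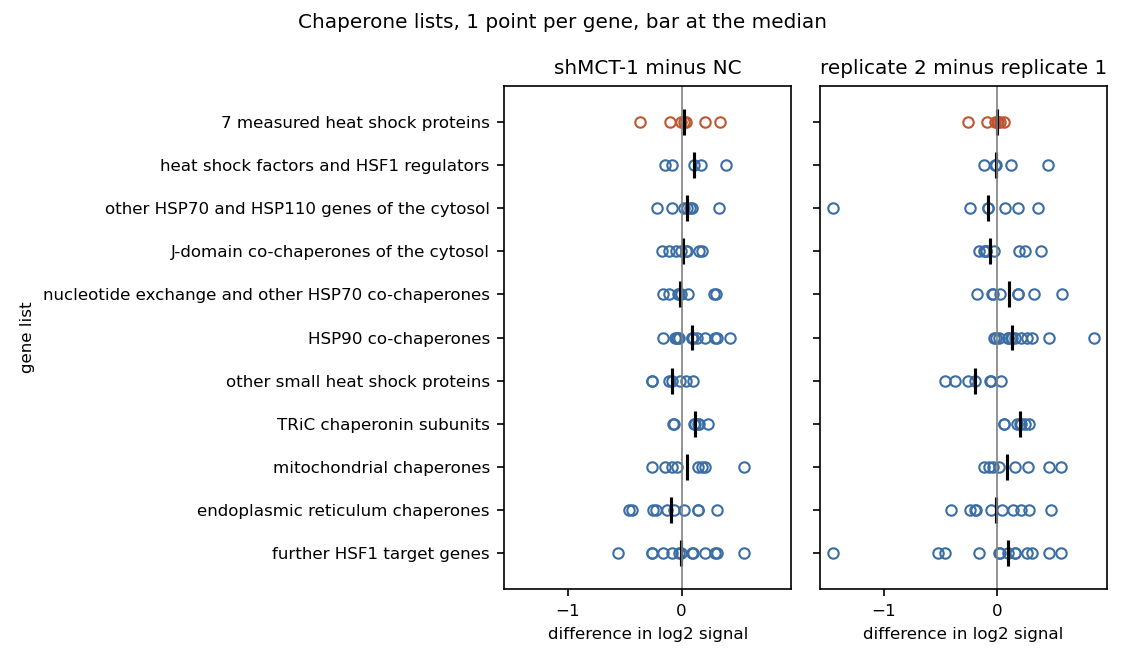
Differences in log2 signal (horizontal axis) for each gene of the 7 measured heat shock proteins and of 10 chaperone and HSF1 lists, 1 circle per gene and a bar at the list median, for shMCT-1 minus NC on the left and replicate 2 minus replicate 1 on the right. Hspa4l at -1.44 is the farthest circle on the right and appears in both lists that hold it, and the TRiC circles on the right all lie above 0.

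The level of Hsf1 was not measured by the rule, and the related genes given here do not show its level or activity. Hsf2, a second heat shock factor, was at -0.087 between the groups, or -0.019 without NC replicate 1, and Hsf5, a dim row between 2.93 and 3.23, was at 0.17 there and at 0.12 between the numbers. Hsbp1, which binds heat shock factors, was at -0.14. Hspbap1, which binds HSPB1, was at 0.39, or 0.15 without NC replicate 1, and at 0.45 between the numbers. Its group difference was 0.42 within replicate 1 and 0.36 within replicate 2. Of 13 measured HSF1 targets that were no members, 6 were higher and 7 lower in the arrays labelled shMCT-1, with a median of -0.0040, which turned to 0.031 without NC replicate 1. Sqstm1, the autophagy receptor p62, was at -0.56, or -0.15 without NC replicate 1, and Hspe1, the mitochondrial HSP10, at 0.55, or 0.22 without it. Sqstm1 was at -0.84 within replicate 1 and -0.27 within replicate 2, and Hspe1 at 0.65 and 0.45. Serpinh1, the collagen chaperone HSP47, was at -0.26, or -0.39 without NC replicate 1. Between the replicate numbers 9 of the 13 were higher and 4 lower, with a median of 0.094.

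Chaperones of other compartments had group medians of 0.049 for 8 mitochondrial genes and of -0.097 for 10 genes of the endoplasmic reticulum. Without NC replicate 1 the former turned to -0.055 and the latter was -0.051. In the latter Dnajc3, an inhibitor of the kinase PERK, was at -0.43 (SE 0.119, adjusted p = 0.882, limma) with groups apart, and Dnajb9, a partner of the chaperone BiP, was at -0.46, or -0.19 without NC replicate 1. Between the numbers Dnajb11 was at 0.47 and Sdf2l1 at -0.41. Of the mitochondrial genes Dnaja3 was at -0.26 between the groups, or -0.16 without NC replicate 1, and the protease subunit Clpp at 0.46 between the numbers. Hspd1, the HSP60 partner of Hspe1, was at 0.21 between the groups with arrays apart, or 0.11 without that array.

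The gene profiles nearest to that of Hsph1, the member with the widest range over the arrays, were those of Dse, Atp5l2, Wasf1, Antxr1 and S100b. Likeness was the Euclidean distance between the 4 values of each gene after centring, over 11843 named genes at or above the median signal, and the distances ran from 0.0223 to 0.0517 log2 units. With 4 arrays many genes can lie this close, so the order is a description.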

How the data were processed

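Expression Console (Affymetrix) and RMA are the tools named in the submitters' processing notes, and their versions and the genome build were not stated there. Values deposited by the authors were taken as log2 signal, judged from their range, and used unchanged. The table held 65956 rows, of which 30604 had 1 gene symbol and 2146 several, 33206 were not listed in the probe table and 827 had their symbol updated by gene ID (RefSeq GRCm38.p6). No column was left out.

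Both comparisons were fitted on all rows with limma 3.58.1 in R 4.3.3 (lmFit and eBayes, 2 residual degrees of freedom), two-sided, and called at 0.05 after Benjamini-Hochberg adjustment. The fit was tested on simulated data. Background shares cover the 30142 genes, 1 row each. The SD and p-values measure the spread between these samples, which may be technical.

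The members and gene lists were chosen with earlier results of these data known. Named genes were the members and, per list, the 2 with the largest difference in each comparison, with Mcts1 and the 5 profiles nearest to the member of widest range. Bag3, Hspd1, Hsf2, Hsbp1 and Serpinh1 were added after their values were seen. Alternatives were other variance moderation, a filter on dim rows, quantile normalisation, median centring, the mean over a gene's rows, blocks, and leaving out each array.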

Additional observations from a re-analysis of the deposited data

Results flagged for a closer look

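In 4 genes the 2 pairs of arrays moved in opposite directions, a difference that was not tested since each pair holds 1 array per condition. For Hsph1, replicate 2 minus replicate 1 was 0.093 within NC and -0.14 within shMCT-1, so that the second was -0.23 relative to the first. For Hspb1 the same 2 values were 0.11 and -0.067, which differ by -0.18. For Hspb8 they were -0.078 and 0.069, which differ by 0.15. For Hspa1a, shMCT-1 minus NC was 0.070 in the arrays numbered 1 and -0.025 in those numbered 2, which differ by -0.095.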

How the results depend on the processing

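For shMCT-1 minus NC, 0 rows and 0 members passed under every alternative, including the replicate block, where the lowest adjusted p of a member was 0.374 (limma, Hspb8). The numbers are not known to pair the samples, and deviations of the same number correlated at 0.419 over rows, with 2 pairs. For replicate 2 minus replicate 1, 0 rows passed except without shMCT-1 replicate 1, where 66 did and 0 of them were members, so the range with 1 array left out was 0 to 66. Of 114 member differences under settings that keep all arrays, 5 turned sign. They were Hspa1a between the groups (-0.027 after quantile normalisation, -0.0037 after median centring) and, between the numbers, Hsp90aa1 (-0.011) and Hspb1 (-0.0027) after quantile normalisation and Hspb8 (0.016) after centring. Of 56 with 1 array left out 9 turned, with ranges between the groups of -0.13 to 0.17 for Hspa1a and -0.0062 to 0.082 for Hspa8, and between the numbers of -0.25 to 0.21 for Hsph1, -0.12 to 0.17 for Hspb1 and -0.23 to 0.22 for Hspb8. The cause was not tested. For Hspa8 the row with the gene's own chromosome code, chosen after seeing the data, gave 0.012 between the groups and 0.067 between the numbers. Where 1 array is left out, the spread is taken from the group that still has 2 arrays. The replicate numbers are then also unbalanced between the groups, so the 2 comparisons mix.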

Other observations

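Several rows list a heat shock symbol beside the row used. The 4 rows with Hspa8 alone had differences of 0.031 to 0.038 between the groups and of 0.052 to 0.059 between the replicate numbers, and another row that also lists Gm15459 was at -0.0046 and 0.029. A row that lists Gm5844 and Hsp90aa1 was at 17.89 and 17.90 in NC and at 17.83 and 17.88 in the arrays labelled shMCT-1. A row that lists Gm12346 and Hsp90aa1 was at 18.28 and 18.24 in NC and at 18.18 and 18.19 in the other group. Both were fully lower in the arrays labelled shMCT-1, at -0.039 and -0.072, against 16.0% of all genes fully lower, and neither passed. The row with Hsp90aa1 alone overlapped between the groups. Those with a second symbol carried codes of chromosomes 3 and 11, whereas Hsp90aa1 is on chromosome 12, and what their probes read was not tested.

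Genes of the integrated stress response ranged widely in their spread over the same arrays, from 0.39 log2 units in Asns to 4.05 in Ddit3, beside 0.46 in Hsph1. Ddit3, the transcription factor CHOP, was at 10.39 in NC replicate 1 and between 6.34 and 6.78 on the other 3 arrays, and Ddit4, an inhibitor of mTORC1, was at 14.11 there and between 11.09 and 12.81 on the other 3. On the same array Hspa1a was 0.13 above and Hsph1 0.29 below the mean of the others.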
